A study of Mus musculus with 2 samples.

Results

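The genes described here act in bone mineralization: *Ibsp*, *Bglap*, *Bglap2*, *Dmp1*, *Ifitm5*, *Alpl*, *Phospho1*, *Enpp1*, *Ank* and *Phex*. They were chosen by name for their known role, with earlier results of these data known. These 10 genes stand among the 31054 features of the deposited matrices. Single-cell RNA sequencing was performed on the mouse rib callus at 4 days post injury (dpi) after a 3 mm resection, with 1 control library and 1 *Smo* cKO library. The control animals were *Sox9*:CreER;*R26*:tdTomato;*Smo* flox/+. In the *Smo* cKO animals, which were *Sox9*:CreER;*R26*:tdTomato;*Smo* flox/flox, both alleles of *Smo* are floxed. Both genotypes therefore carry the Cre driver and the tdTomato reporter, and the control has 1 floxed *Smo* allele. All animals were 8 to 12 weeks old and were given tamoxifen from day -7 to day -5, so that *Smo*, the membrane protein that passes on the Hedgehog signal, was deleted only in cells that expressed *Sox9*:CreER. Each library holds the cells of 3 animals in 1 pool. Without a second library per genotype no test compares the genotypes, and every interval given here is an exact 95% interval that covers counting error alone.

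Bone mineral is deposited on collagen by osteoblasts, and the balance of phosphate and pyrophosphate outside the cell sets where crystals grow. *Alpl* and *Phospho1* encode phosphatases that release phosphate, while *Enpp1* makes pyrophosphate, an inhibitor of crystal growth, and *Ank* encodes a membrane protein needed for its export. *Ibsp* (bone sialoprotein), *Bglap* and *Bglap2* (osteocalcin) and *Dmp1* encode proteins that are laid down in the mineral, and *Phex* and *Dmp1* are best known from osteocytes, the cells buried in bone. *Ifitm5* encodes a small membrane protein of osteoblasts.

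Most of the genes lie on different chromosomes, and only the osteocalcin genes and the pair *Dmp1* and *Ibsp* are neighbors. On GRCm38 the *Bglap* gene runs over chr3:88383501-88384464 on the minus strand, and *Bglap2* over chr3:88377736-88378699 on the same strand, 4801 bases away. *Dmp1* (chr5:104202613-104214102, plus strand) and *Ibsp* (chr5:104299171-104311469, plus strand) are neighbors in the cluster of acidic matrix genes that also holds *Dspp*, *Mepe* and *Spp1*, and 85068 bases separate them. *Enpp1* lies at chr10:24637914-24712159 on the minus strand and *Ank* at chr15:27466677-27594909 on the plus strand. *Alpl* (chr4:137741733-137796384), *Ifitm5* (chr7:140948958-140950291) and *Phex* (chrX:157162075-157415312) are on the minus strand, and *Phospho1* (chr11:95824499-95832140) is on the plus strand. The stretches before the start sites are shown for 4 genes because their patterns differed most: *Bglap* and *Ibsp* UMIs sat in a few cells, while those of *Enpp1* and *Ank* were spread over many. They are RefSeq promoter sequences of GRCm38.p6, written 5′ to 3′ on the strand of the gene, with capitals marking ACCACA (a core that Runx factors recognize, searched on both strands) and TATAAA (searched on the strand of the gene). *Bglap* is chr3:88384467-88384716, *Ibsp* chr5:104299037-104299170, *Enpp1* chr10:24712160-24712409 and *Ank* chr15:27466427-27466676.
Bglap: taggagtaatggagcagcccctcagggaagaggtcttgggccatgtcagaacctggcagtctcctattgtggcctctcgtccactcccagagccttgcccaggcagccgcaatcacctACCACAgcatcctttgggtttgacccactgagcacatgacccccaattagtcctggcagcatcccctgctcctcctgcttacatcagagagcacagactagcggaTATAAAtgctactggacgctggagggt
Ibsp: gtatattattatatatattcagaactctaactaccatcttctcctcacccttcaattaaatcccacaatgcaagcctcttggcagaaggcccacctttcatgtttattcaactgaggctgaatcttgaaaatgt
Enpp1: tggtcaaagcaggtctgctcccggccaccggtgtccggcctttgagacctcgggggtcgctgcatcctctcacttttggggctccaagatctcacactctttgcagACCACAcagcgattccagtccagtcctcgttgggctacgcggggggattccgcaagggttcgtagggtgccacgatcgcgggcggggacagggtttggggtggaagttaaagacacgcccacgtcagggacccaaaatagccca
Ank: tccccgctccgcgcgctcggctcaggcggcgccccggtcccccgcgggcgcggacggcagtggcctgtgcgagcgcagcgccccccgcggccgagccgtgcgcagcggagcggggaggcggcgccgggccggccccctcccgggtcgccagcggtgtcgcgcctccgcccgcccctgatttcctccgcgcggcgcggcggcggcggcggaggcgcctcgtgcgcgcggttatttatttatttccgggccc

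Across the 32851 RefSeq promoters, in the 250 bases before the start site, ACCACA was found in 14.0% and TATAAA in 7.59%, and the median GC content was 52.4% with a median of 6 CpG dinucleotides. The *Bglap* stretch held both motifs, with ACCACA at position -132 and TATAAA at -27 from the start site, at a GC content of 56.4%. *Enpp1* held 1 ACCACA, at -144, and had a GC content of 61.2% with 17 CpGs. The *Ank* stretch held neither motif and was among the most GC-rich of the genome, with 81.2% GC and 49 CpGs (99.3rd percentile of GC content). *Ibsp* held neither motif, on the strands searched, in its 250 bases, and had 43.6% GC and 2 CpGs. Of these bases the 134 that lie outside the annotated gene are shown. The part not shown holds TTTATA, the reverse complement of TATAAA, which was not searched for. A match is a description of the letters and not of binding. No link between these sequences and the patterns of the genes was tested. *Alpl*, which is not shown, had 20 CpGs in 1 stretch (68.4% GC) and 4 in another (56.0% GC). The *Bglap2* promoter was not used here.

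After cells with fewer than 200 detected genes or with at least 10% of UMIs (unique molecular identifiers, the counted molecules) on mitochondrial genes were left out, 10057 cells remained in the control library and 9507 in the *Smo* cKO library, at median depths of 8367 and 9092 UMIs. Cells were assigned to classes by marker genes, none of which is among the 10 genes. The connective-gated class, defined by collagen and fibroblast markers, held 6084 cells in control (60.5%) and 4782 in *Smo* cKO (50.3%), and of these 171 and 205 were osteoblast-gated, from *Sp7*, *Runx2* and other osteoblast markers. Levels are given as CPM, the UMIs of a gene divided by all UMIs of the class on the usual scale. *Smo*, the targeted gene, was at 19.2 CPM in control and 12.5 CPM in *Smo* cKO connective-gated cells (1542 and 914 UMIs). The 2 libraries shared 613 cell barcodes, of which 599 were kept in both, and in 489 of these pairs (81.6%) one cell had at least 10-fold more UMIs than the other. Values without these barcodes are given beside the results that they move.

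*Ibsp* was found at 41.3 CPM (39.9 to 42.8; 3318 UMIs) in control connective-gated cells and at 66.5 CPM (64.6 to 68.3; 4842 UMIs) in *Smo* cKO connective-gated cells, a log2 ratio of 0.68 (0.62 to 0.75). Its level was therefore higher in the *Smo* cKO library beyond counting error, although the genotypes could not be compared over animals. Without the shared barcodes the log2 ratio was 0.74, and without the cell with most *Ibsp* UMIs in each library it was 0.55. In osteoblast-gated cells *Ibsp* was at 626 CPM in control and 577 CPM in *Smo* cKO (log2 ratio -0.12, -0.20 to -0.03), so that the higher level over all connective-gated cells was not seen within this class. An *Ibsp* UMI was found in 44 of 171 control and 82 of 205 *Smo* cKO cells of the class. In *Smo* cKO the chondrocyte-gated class had a higher level, 694 CPM. Among connective-gated cells 2.81% were osteoblast-gated in control and 4.29% in *Smo* cKO, and these osteoblast-gated cells held 63.2% and 47.5% of all *Ibsp* UMIs of the libraries.

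A UMI of *Ibsp* was detected in 252 control (4.14%, 3.66 to 4.67) and 303 *Smo* cKO (6.34%, 5.66 to 7.06) connective-gated cells. When each cell was thinned to 1000 UMIs, with 143 and 79 shallower cells left out, the shares were 1.18% and 1.76%, against 0.173% and 0.253% in hematopoietic-gated cells, leaving out osteoclasts, which were taken as cells that should lack the gene. Before thinning the hematopoietic shares were 0.641% and 1.01%, at median depths of 2639 and 3248.5 UMIs against 11135.5 and 13438.5 in the connective-gated cells. At 5000 UMIs per cell the shares were 2.62% (2.21 to 3.08) and 3.84% (3.28 to 4.46) in connective-gated cells, against 1.90% (0.700 to 4.09) and 1.21% (0.489 to 2.48) of the 316 and 577 hematopoietic-gated cells that were deep enough. *Ibsp* detection was therefore above this background at both depths in *Smo* cKO, while in control the intervals overlapped at 5000 UMIs. The control background at that depth rests on 6 cells. In control 3 neutrophil-gated cells held 49, 24 and 18 *Ibsp* UMIs, at depths of 26813, 24540 and 22561 UMIs against a class median of 1692. Whether these barcodes hold more than 1 cell was not tested.

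The chondrocyte-gated class showed how far single cells can move the value. *Ibsp* was at 134 CPM in 155 control cells and at 694 CPM in 83 *Smo* cKO cells, but 896 of the 1390 *Smo* cKO UMIs came from 1 cell with no osteocalcin UMI. Without the cell with most UMIs in each library the levels were 104 and 248 CPM. Without the shared barcodes they were 92.1 and 1085 CPM. In other connective-gated cells, those in no osteoblast, chondrocyte or tendon class, *Ibsp* was at 6.45 CPM in control and 13.0 CPM in *Smo* cKO (log2 ratio 1.01), and in tendon-gated cells at 16.3 and 17.4 CPM.

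**Figure D1:**
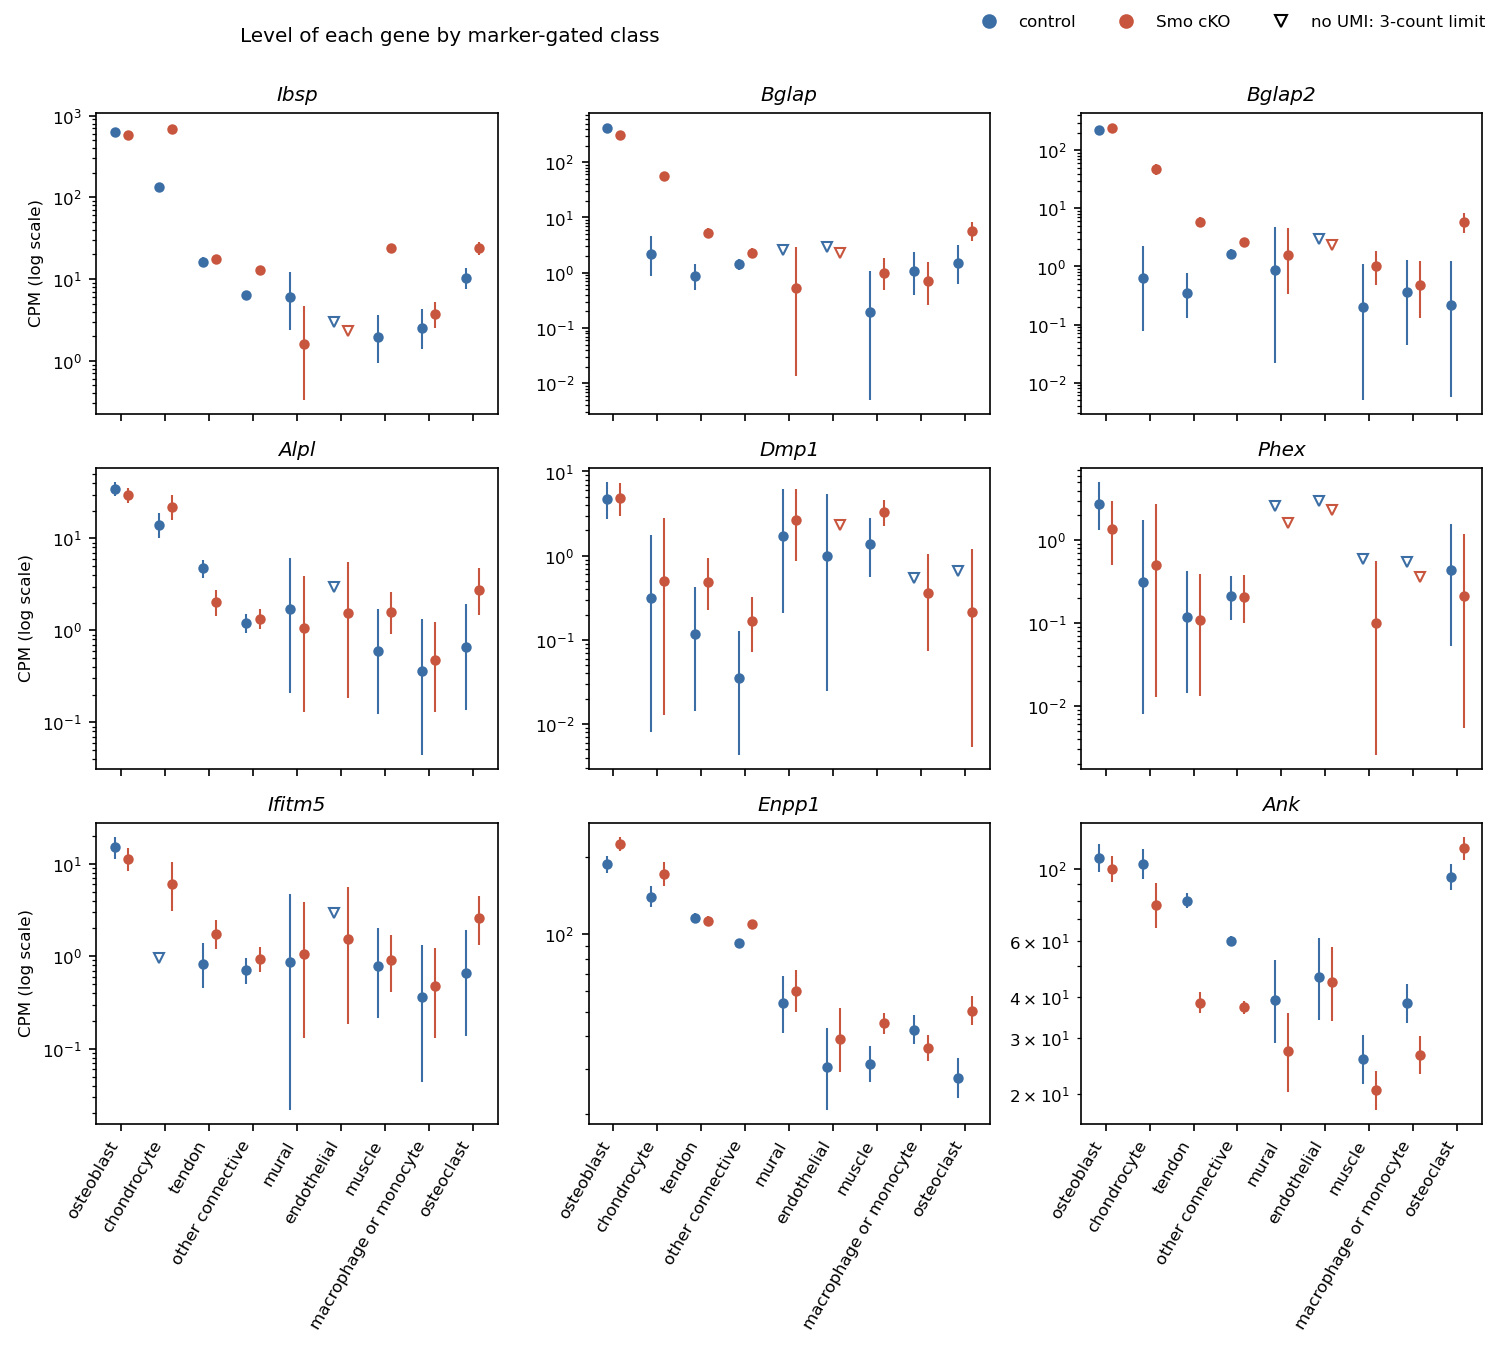
Level of the mineralization genes (CPM, log axis) by marker-gated class in the control and *Smo* cKO libraries; points are sums over the cells of a class, bars are exact 95% intervals for counting error and open triangles mark the limit of 3 counts where no UMI was found. *Ibsp*, *Bglap* and *Bglap2* stand highest in osteoblast-gated cells (626, 417 and 224 CPM in control), apart from *Ibsp* in the chondrocyte-gated *Smo* cKO cells (694 CPM), while *Enpp1* and *Ank* are above 20 CPM in many classes.

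Osteocalcin was still more concentrated in single cells. *Bglap* had 1605 UMIs (19.0 to 21.0 CPM) in control and 1692 UMIs (22.1 to 24.4 CPM) in *Smo* cKO connective-gated cells, a log2 ratio of 0.22 (0.12 to 0.32), and *Bglap2* at 11.3 CPM (907 UMIs) and 18.9 CPM (1379 UMIs), a log2 ratio of 0.74 (0.62 to 0.87). These sums rest on few cells. The single cell with most *Bglap* UMIs held 612 (38.1%) of them in control and 714 (42.2%) in *Smo* cKO, and the same cells held the most *Bglap2* UMIs, 367 and 515. Over 50% of the *Bglap* UMIs of the connective-gated cells lay in 2 cells in each library. Without the shared barcodes the log2 ratio of *Bglap* was -0.15 (20.9 to 18.9 CPM) and that of *Bglap2* 0.41. Of the 479 *Smo* cKO *Bglap* UMIs in shared barcodes, 444 were in 1 osteoblast-gated cell, so this change also rests largely on 1 cell. Without the 10 cells with most UMIs of the gene in each library *Bglap* was at 1.06 and 2.49 CPM and *Bglap2* at 0.836 and 2.67 CPM.

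In osteoblast-gated cells *Bglap* was at 417 CPM (396 to 439) in control and 316 CPM (299 to 333) in *Smo* cKO, a log2 ratio of -0.40 (-0.51 to -0.30), and *Bglap2* at 224 and 242 CPM (0.11, -0.02 to 0.25). Without the shared barcodes these ratios were -0.86 and -0.32. Among the cells so removed was 1 *Smo* cKO cell of 32806 UMIs with 444 *Bglap* and 340 *Bglap2* UMIs. A *Bglap* UMI was found in this class in 12 of 171 cells in control and in 16 of 205 in *Smo* cKO, so that most cells with osteoblast markers held no osteocalcin UMI. At 1000 UMIs per cell, *Bglap* was detected in 0.236% of control and 0.425% of *Smo* cKO connective-gated cells against 0.231% and 0.169% of hematopoietic-gated cells. The control share is therefore not above background. In *Smo* cKO the intervals (0.260 to 0.656 and 0.0460 to 0.432) overlapped as well. In osteoblast-gated cells the thinned shares were 4.68% and 3.41%. The split between the osteocalcin genes is uncertain, since 74.7% of the 50-base words of the *Bglap* transcript also occur in *Bglap2*, and 80.1% of those in its last 300 bases. Summed with *Bglap3*, they gave a log2 ratio of 0.42 (0.35 to 0.50).

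**Figure D2:**
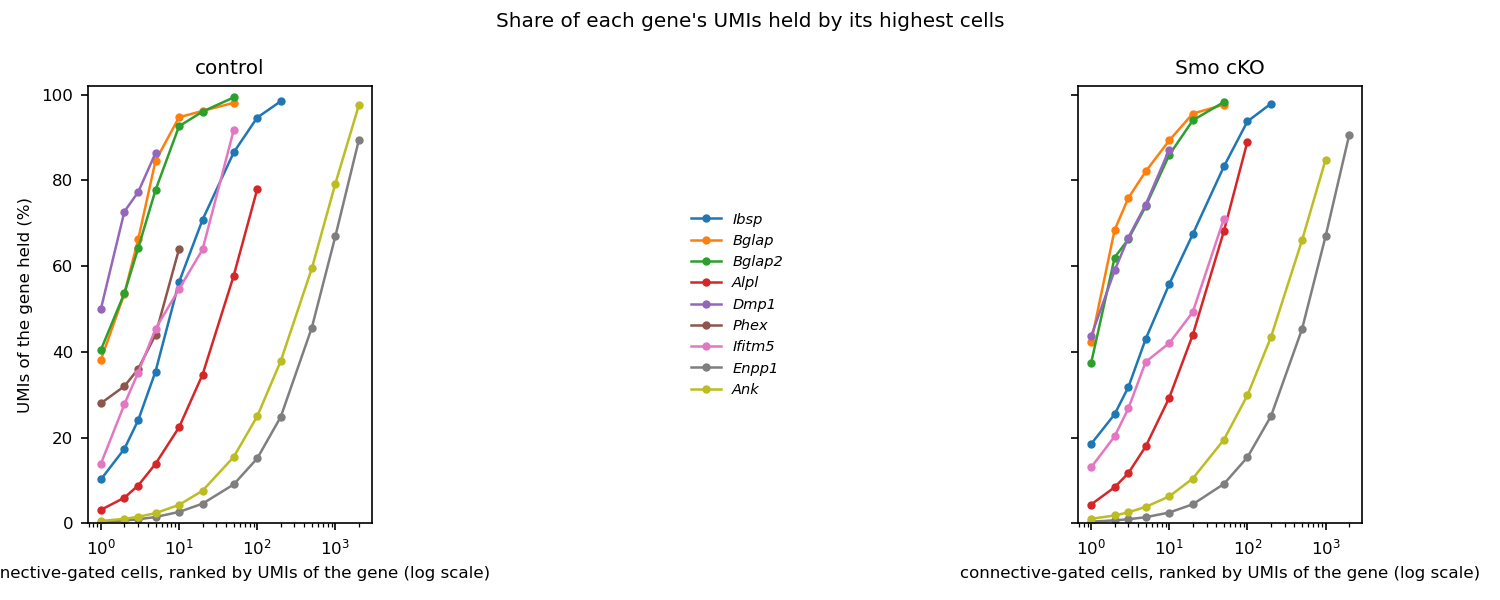
Cumulative percent of the UMIs of a gene in connective-gated cells against the number of cells, ranked from most to fewest UMIs (log axis), for each library. For *Bglap* 50% of the UMIs are reached at 2 cells and for *Ibsp* at 8 cells in each library, while *Enpp1* needs 586 control and 589 *Smo* cKO cells and *Ank* 343 and 268.

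*Dmp1*, which osteocytes and mature osteoblasts secrete, was near the limit of detection, with 22 UMIs in 8 control and 39 UMIs in 15 *Smo* cKO connective-gated cells (log2 ratio 0.97, 0.18 to 1.79). Of these, 11 UMIs in control and 17 in *Smo* cKO came from 1 cell each. In each library the cell with most *Dmp1* was an osteoblast-gated cell that was also rich in *Ibsp* and osteocalcin. The control cell held 182 *Ibsp*, 185 *Bglap*, 120 *Bglap2* and 15 *Ifitm5* UMIs, and the *Smo* cKO cell 252, 126, 59 and 10. The *Smo* cKO cell also held 184 UMIs of the cartilage collagen *Col2a1*, and the control cell held 0. Whether the *Smo* cKO barcode holds more than 1 cell was not tested. *Phex*, a peptidase whose loss causes phosphate wasting, had 25 and 19 UMIs in connective-gated cells (log2 ratio -0.26, with an interval up to 0.66). The control cell with most *Dmp1* also held the most *Phex*, 7 UMIs. This was not so in *Smo* cKO, where the cell with most *Phex* (4 UMIs) held 0 *Dmp1* UMIs and the cell with most *Dmp1* held 2 *Phex* UMIs. No difference between the libraries was detectable for *Phex* at this depth.

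*Ifitm5* was at 1.35 CPM (108 UMIs) in control and 1.89 CPM (138 UMIs) in *Smo* cKO connective-gated cells, a log2 ratio of 0.49 (0.12 to 0.87), and at 15.0 and 11.3 CPM in osteoblast-gated cells (-0.41, with an interval up to 0.17). The larger values were those of the osteoblast-gated class in both libraries, where the interval of the ratio includes 0. Of its 765 exon bases 227 are shared with *Gm45717*, an overlapping gene on the same strand, and its count is uncertain for that reason.

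Most cells rich in *Ibsp* were not rich in osteocalcin, while the cells rich in osteocalcin were often rich in *Ibsp* too. With at least 10 UMIs as the mark of a rich cell, over all kept cells, 57 control and 71 *Smo* cKO cells were rich in *Ibsp* only, 7 and 12 in osteocalcin only (*Bglap*, *Bglap2* and *Bglap3* summed), and 6 and 11 in both. The cells rich in both made up 9.52% of the 63 cells rich in *Ibsp* in control and 13.4% of the 82 in *Smo* cKO, but 46.2% of the 13 and 47.8% of the 23 cells rich in osteocalcin. Among connective-gated cells a *Bglap* UMI was found in 6.75% of control and 7.26% of *Smo* cKO cells with an *Ibsp* UMI, against 1.10% and 1.52% of those without one, at median depths of 14034 and 17121 against 11011.5 and 13251 UMIs. Of the cells rich in *Ibsp* only, 51 in control and 62 in *Smo* cKO held no osteocalcin UMI. Of those rich in osteocalcin only, 4 of 7 in control and 3 of 12 in *Smo* cKO held an *Ibsp* UMI. Their *Ibsp* level was 533 and 119 CPM, against 4.72 and 6.98 CPM in the connective-gated cells rich in neither. The mark of 10 UMIs takes no account of depth. The median depth was 15119 and 18227 UMIs in the cells rich in *Ibsp* only, 4162 and 3428 UMIs in those rich in osteocalcin only, and 11867.5 and 22211 UMIs in those rich in both. Of the cells rich in *Ibsp* only, 7 control and 6 *Smo* cKO cells lay outside the connective-gated classes.

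These kinds of cell also differed in the genes that the grouping did not use. The cells rich in *Ibsp* only held 0 UMIs of *Dmp1* and 0 of *Phex* in both libraries, which allows up to 3 UMIs of each in all. They held 1 control and 11 *Smo* cKO UMIs of *Ifitm5*. The cells rich in both held 16 and 19 *Dmp1*, 8 and 7 *Phex* and 45 and 49 *Ifitm5* UMIs, although there were only 6 and 11 of them. Most of these cells held no *Dmp1* or *Phex*: each was found in 2 control and 3 *Smo* cKO cells, and *Ifitm5* in 5 and 8. In control 1 cell held 11 of the 16 *Dmp1* and 7 of the 8 *Phex* UMIs. In *Smo* cKO 1 cell held 17 of the 19 *Dmp1* UMIs, along with 184 *Col2a1* UMIs, and another held 4 of the 7 *Phex* UMIs. The *Dmp1* and *Phex* sums of this kind thus rest largely on single cells. The cells rich in osteocalcin only held 0 and 9 *Dmp1*, 0 and 1 *Phex* and 10 and 1 *Ifitm5* UMIs. *Alpl* was at 83.1 and 66.1 CPM in the cells rich in *Ibsp* only and at 445 and 262 CPM in those rich in both. *Mmp13*, the collagenase of hypertrophic chondrocytes and osteoblasts, was at 1008 and 1094 CPM in the cells rich in *Ibsp* only. In the cells rich in both it was at 171 CPM in control, with all 15 UMIs in 1 cell, and at 1071 CPM in *Smo* cKO. *Acan*, the cartilage proteoglycan, was at 388 and 180 CPM in the cells rich in *Ibsp* only. In the cells rich in both it was at 228 and 405 CPM, so that the order of these kinds was reversed in *Smo* cKO. *Spp1* (osteopontin), another acidic matrix protein, was at 541 and 2372 CPM in the cells rich in *Ibsp* only and at 12734 and 8225 CPM in those rich in both.

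The cells rich in both were not alike in the libraries with regard to cartilage markers. *Col2a1*, the collagen of cartilage, had 0 UMIs in the 6 control cells and 629 UMIs in the 11 *Smo* cKO cells, found in 5 of them with up to 270 UMIs in 1 cell. Of these 11 cells 4 were chondrocyte-gated, 4 osteoblast-gated, 2 osteoclast-gated and 1 tendon-gated, while 5 of the 6 control cells were osteoblast-gated. Whether cells captured together account for this mixture was not tested.

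**Figure D3:**
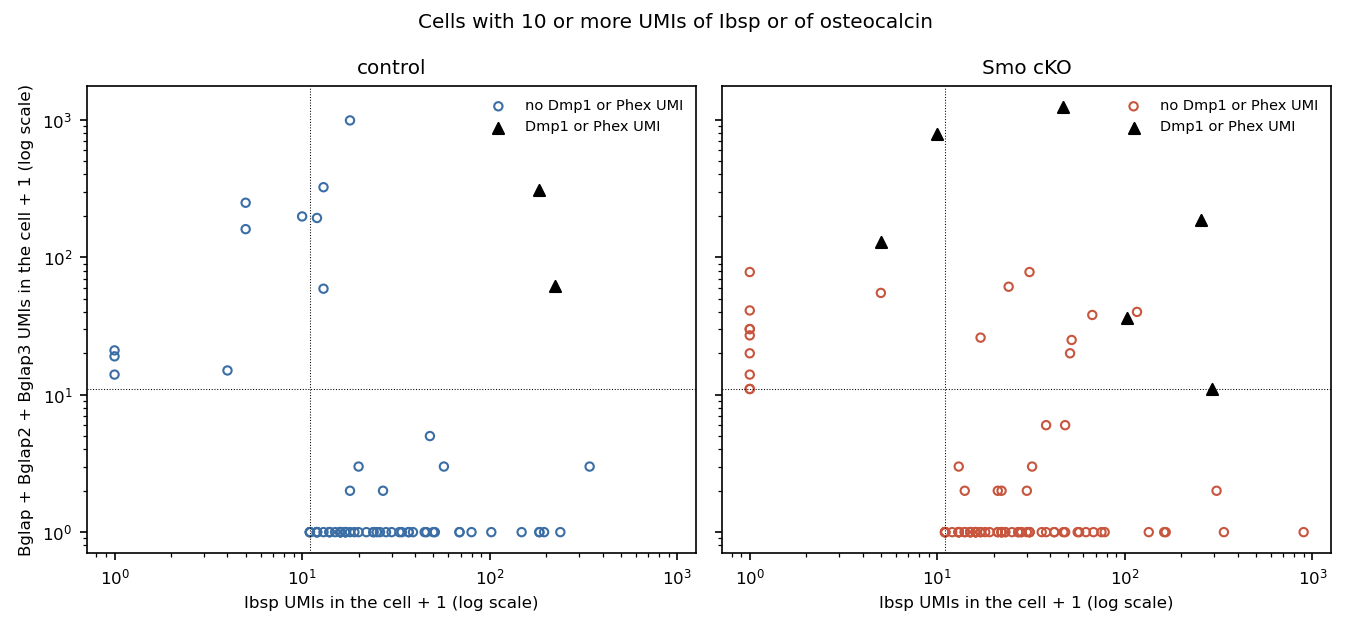
*Ibsp* UMIs against osteocalcin UMIs (*Bglap*, *Bglap2* and *Bglap3*) of each cell with at least 10 UMIs of either, by library, each plus 1 on log axes, with black triangles for cells that hold *Dmp1* or *Phex* UMIs. The 57 control and 71 *Smo* cKO cells rich in *Ibsp* only lie along the *Ibsp* axis, and none of them holds a *Dmp1* or *Phex* UMI.

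*Alpl*, the phosphatase that marks osteogenic cells, was at 3.95 CPM (317 UMIs) in control and 3.75 CPM (273 UMIs) in *Smo* cKO connective-gated cells, a log2 ratio of -0.08 (-0.31 to 0.16). It was highest in the osteoblast-gated class, at 34.7 and 29.4 CPM, followed by the chondrocyte-gated class at 13.9 and 22.0 CPM. In contrast to the matrix proteins it was spread thinly, with at most 10 control and 12 *Smo* cKO UMIs in a cell, and the 10 cells with most *Alpl* held 22.4% and 29.3% of its UMIs against 94.7% and 89.3% for *Bglap* and 56.3% and 55.8% for *Ibsp*. *Phospho1*, the phosphatase of matrix vesicles, had 1 UMI in each library among connective-gated cells. This gene shares 1818 of its 2029 exon bases with *Zfp652* on the same strand, so that its reads may not be counted, and nothing is read from its level.

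*Enpp1* was the most widely detected of the pyrophosphate genes, in 47.3% (46.0 to 48.6) of control and 59.0% (57.6 to 60.4) of *Smo* cKO connective-gated cells. Its level was 103 CPM (8305 UMIs) and 119 CPM (8646 UMIs), a log2 ratio of 0.20 (0.15 to 0.24). At 1000 UMIs per cell it was detected in 7.94% and 10.6% of connective-gated cells and in 2.31% and 2.87% of hematopoietic-gated cells. The osteoblast-gated class had the highest level, at 186 CPM (173 to 201) in control and 224 CPM (210 to 239) in *Smo* cKO, and the chondrocyte-gated class followed at 140 and 171 CPM. The ratio was positive in osteoblast-gated cells (0.27, 0.12 to 0.41) and in other connective-gated cells (0.24, 0.18 to 0.30), while in tendon-gated cells its interval included 0 (-0.04, -0.13 to 0.05).

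*Ank* was lower in the *Smo* cKO library when cells of any gene number were kept, but not among cells with at most 2000 detected genes. Its level was 68.1 CPM (66.3 to 70.0; 5469 UMIs) in control and 42.5 CPM (41.0 to 44.0; 3097 UMIs) in *Smo* cKO connective-gated cells, a log2 ratio of -0.68 (-0.74 to -0.62), and the same ratio of -0.68 was found without the shared barcodes. The lower level did not depend on a few cells, since the 10 cells with most *Ank* held only 4.32% and 6.30% of the UMIs, and without them the log2 ratio was -0.71. In the 1336 control and 745 *Smo* cKO connective-gated cells with at most 2000 detected genes, the limit used in the study, *Ank* was at 30.9 and 35.5 CPM, from 193 and 100 UMIs, and the log2 ratio was 0.20 (-0.16 to 0.56). Cells with at least 5 *Ank* UMIs were 4.70% of control and 2.70% of *Smo* cKO connective-gated cells, and those with at least 10 were 1.48% and 0.648%. The median depth of these cells was higher in the *Smo* cKO library, as given above, where the shares were lower.

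The size of the *Ank* difference varied with the class. Among the connective-gated classes it was largest in tendon-gated cells, at 79.9 CPM in control and 38.5 CPM in *Smo* cKO (log2 ratio -1.05, -1.18 to -0.92), followed by other connective-gated cells at 60.0 and 37.3 CPM (-0.69, -0.77 to -0.60) and chondrocyte-gated cells at 104 and 77.4 CPM (-0.43, -0.71 to -0.15). In osteoblast-gated cells the levels of 109 and 101 CPM did not differ beyond counting error (-0.12, -0.32 to 0.09). Outside the connective tissue, *Ank* was at 38.4 and 26.5 CPM in macrophage- or monocyte-gated cells (-0.53, -0.81 to -0.25), while osteoclast-gated cells had 94.8 and 116 CPM (0.29, 0.11 to 0.48). Cells that fitted no class had 142 and 46.4 CPM (-1.61, -1.79 to -1.43). The lower *Ank* level was thus not confined to the connective-gated classes. At 1000 UMIs per cell *Ank* was detected in 4.95% and 3.59% of connective-gated and in 2.65% and 1.77% of hematopoietic-gated cells, and at 5000 UMIs per cell in 19.5% and 14.9% against 17.4% and 14.7%, so that in the deeper cells its detection was not set apart from that in hematopoietic-gated cells.

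**Figure D4:**
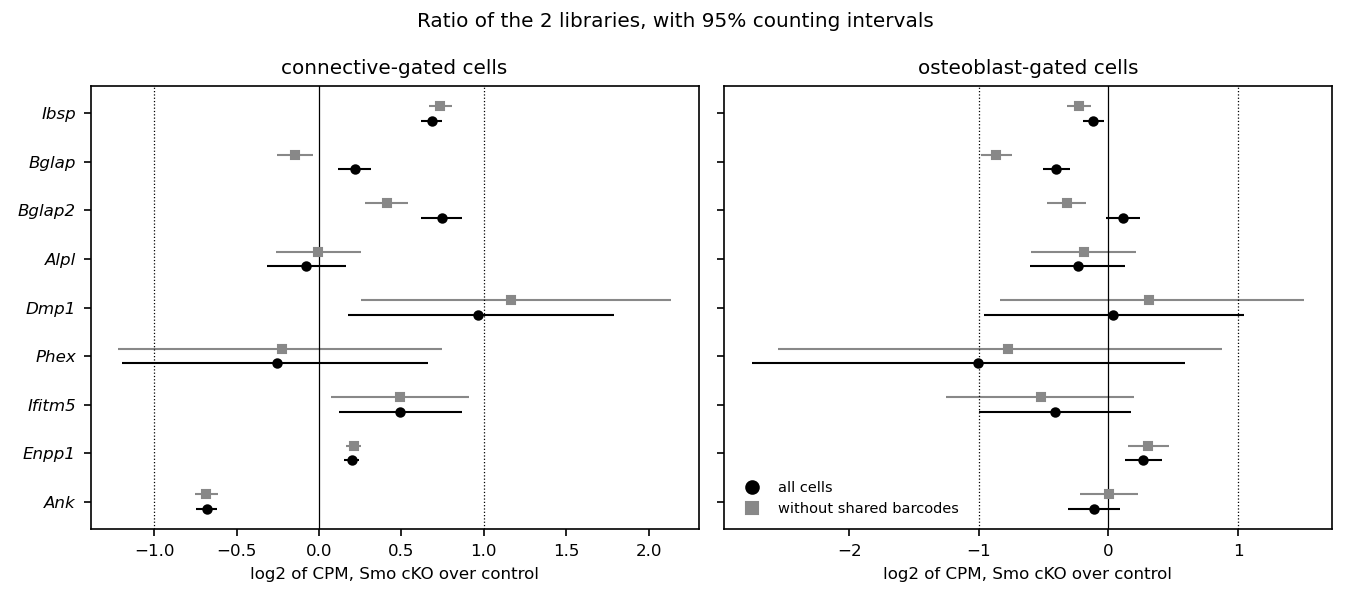
Log2 ratio of *Smo* cKO over control CPM for each gene in connective-gated and osteoblast-gated cells, with exact 95% intervals for counting error; round points are all cells, gray squares leave out the shared barcodes, and the line at 0 marks equal levels. For the round points, the intervals of *Ibsp* (0.68), *Bglap2* (0.74), *Bglap*, *Dmp1*, *Ifitm5* and *Enpp1* lie above 0 in connective-gated cells and that of *Ank* (-0.68) below. In osteoblast-gated cells those of *Bglap* (-0.40) and *Ibsp* lie below and that of *Enpp1* (0.27) above.

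The ratios were then read against those of all genes. Of the 2561 genes with at least 50 CPM in connective-gated cells of either library, 19 (0.742%) were higher in *Smo* cKO by 2-fold or more and 4 (0.156%) were lower by as much. Only *Ibsp*, *Enpp1* and *Ank* of the 10 genes reached this level, and 0 of 3 passed 2-fold in either direction. Among cells with at most 2000 detected genes *Ibsp* (2.25), *Bglap* (2.01) and *Bglap2* (2.40) passed 2-fold upward. The *Smo* cKO cell with most *Bglap* and *Bglap2*, at 714 and 515 UMIs, was among these cells. Of the *Ibsp* UMIs of all kept cells under this limit, 10 cells held 75.0% in control and 83.3% in *Smo* cKO. In that setting 82 of the 2527 genes with at least 50 CPM did so, a larger share than among all cells. With each cell weighing the same *Ibsp* (1.15) passed 2-fold upward, where 19 of 2561 genes did. In *Smo* cKO 1 cell of 8727 UMIs held 896 *Ibsp* UMIs, and the equal-weight ratio without this cell was not determined. At a 1.5-fold limit, which 2.15% of genes passed upward and 0.898% downward, *Ibsp* was higher and *Ank* lower. *Ank* had the 17th lowest ratio of the 2561 genes (0.664% at or below it) and *Ibsp* the 40th highest (1.56% at or above it), while 21.7% of genes had a ratio at or above that of *Enpp1*. The median log2 ratio was 0.20 for the 3 genes and 0.06 for all genes.

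With the level lowered to 10 CPM, 5 of the 10 genes were among 7261, and *Ibsp* and *Bglap2* were at least 1.5-fold higher (2.31% of genes) and *Ank* at least 1.5-fold lower (1.32% of genes), with a median of 0.22 against 0.02. At 2-fold 0 of 5 were called, against 0.923% of genes upward and 0.248% downward. In osteoblast-gated cells 5 of the 10 genes reached 50 CPM and 7 reached 10 CPM, and 0 passed 2-fold, against 0.809% upward and 0.347% downward of 2595 genes, and 1.21% and 0.718% of 7385. At 1.5-fold and 10 CPM, 0 of 7 were called there as well, against 3.72% upward and 3.86% downward.

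Over the 12 classes with at least 50 cells in each library, the osteoblast-gated class had the highest level of 7 of the 10 genes in both libraries: *Bglap*, *Bglap2*, *Alpl*, *Dmp1*, *Phex*, *Ifitm5* and *Enpp1*. The share of all genes with their highest level in this class was not determined, so the count is a description only. *Ibsp* was highest there in control but in the chondrocyte-gated class in *Smo* cKO, and *Ank* was highest there in control (109 CPM, with 104 CPM in chondrocyte-gated cells) but in osteoclast-gated cells in *Smo* cKO (116 CPM, with 101 CPM in osteoblast-gated cells). For *Ank* these neighbors in the order had overlapping intervals. The place of *Dmp1* rests largely on 1 cell per library, with 11 of 17 control and 17 of 21 *Smo* cKO osteoblast-gated UMIs. In *Smo* cKO the muscle-gated class came next for *Dmp1*, at 3.31 CPM (2.28 to 4.65) against 4.83 CPM (2.99 to 7.38). These intervals overlapped, and the muscle-gated cells held more *Dmp1* UMIs, 33 against 21. The place of *Phex* rests on 10 control UMIs, 7 of them in 1 cell, and on 6 *Smo* cKO UMIs in 2 cells. In *Smo* cKO the chondrocyte-gated class came next for *Phex* with 1 UMI. It also came next for *Ifitm5* (12 against 49 UMIs, 5.99 against 11.3 CPM) and *Alpl* (44 against 128 UMIs, 22.0 against 29.4 CPM). Whether these classes differ in the 3 genes was not tested. The osteoblast-gated cells also held some cartilage markers but not others. *Acan* was at 228 and 125 CPM there, against 31.2 and 17.8 CPM in the other connective-gated cells. *Sox9* was at 50.8 and 36.1 CPM against 37.7 and 34.3 CPM, which is close in *Smo* cKO. *Col11a2* (30.6 and 21.9 CPM) and *Hapln1* (15.8 and 13.8 CPM) were found as well. In contrast, *Col9a1* had 0 and 2 UMIs, *Col9a2* 0 and 4, *Matn3* 1 and 7 and *Cnmd* 0 in each library. *Col2a1* had 0 and 187 UMIs, of which 184 were in 1 cell, the *Smo* cKO cell with most *Dmp1*.

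The genes whose levels over single cells were most like a member were in part shared between the libraries. Pearson correlations were taken over the 6084 control and 4782 *Smo* cKO connective-gated cells on ln(1 + UMIs per 10000), which share depth and library, and are given as a description, with genes ranked by the mean of both libraries. *Ibsp* was most like *Alpl* (r of 0.45 in control and 0.46 in *Smo* cKO) and *Mmp13* (0.36 and 0.50). *Bglap* was most like *Bglap2* (0.89 and 0.91), with *Col11a2* (0.53 and 0.49), *Smpd3* (0.60 and 0.41) and *Col13a1* (0.44 and 0.51) next, of which the last 3 are gate genes. The correlation of *Ibsp* with *Bglap* was lower, at 0.26 in both libraries. *Enpp1* was most like *Tnc* (0.42 and 0.43), an extracellular matrix glycoprotein, and *Ank* was most like *Enpp1* (0.36 and 0.25). The order was not the same within each library: *Mmp13* was above *Alpl* for *Ibsp* in *Smo* cKO, *Crip1* (0.43) above *Tnc* for *Enpp1* in control, and *Crip2* (0.27) above *Enpp1* for *Ank* in *Smo* cKO.

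Other genes of mineralization were taken from lists of 35 genes, of which 8 had at most 3 UMIs in each library and 11 reached 50 CPM in connective-gated cells. Of these 11, 0 passed 2-fold in either direction, and their median log2 ratio was 0.14. Among the matrix genes *Spp1* was at 335 and 445 CPM (0.41, 0.39 to 0.43), and *Mgp*, an inhibitor of calcification, at 684 and 1110 CPM (0.70, 0.68 to 0.71), a ratio as high as that of *Ibsp*. *Col1a1*, the main collagen of bone and a gate gene, was at 9814 and 8898 CPM, and *Mepe* and *Dspp* had 0 UMIs. In osteoblast-gated cells *Spp1* was at 786 and 1345 CPM (0.78, 0.71 to 0.84).

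Among the phosphate and vesicle genes, *Slc20a1*, a phosphate transporter, was at 57.8 and 78.1 CPM (0.43, 0.38 to 0.49), while *Anxa5* and *Anxa6*, which are found in matrix vesicles, had ratios of 0.14 and 0.24. *Nt5e*, which releases phosphate from AMP at the end of the chain that *Enpp1* begins, had 299 and 173 UMIs (-0.65, -0.93 to -0.37), below 50 CPM. The transcription factors of osteoblasts were at similar levels, with *Runx2* at 67.0 and 66.5 CPM (-0.01, -0.07 to 0.04) and *Sp7* at 5.51 and 5.39 CPM (-0.03, -0.23 to 0.17), and both are gate genes. *Ahsg* (fetuin-A), a mineral inhibitor known as a plasma protein of the liver, had 107 UMIs in control and 20 in *Smo* cKO (-2.28, -3.05 to -1.58), and *Omd*, a bone proteoglycan and gate gene, had 171 and 313 UMIs (1.01, 0.74 to 1.29). Of the genes of hypertrophic chondrocytes, *Mmp13* was at 56.1 and 68.2 CPM (0.28, 0.22 to 0.34), and *Col10a1* and *Ihh* had at most 3 UMIs in each library.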

How the data were processed

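Single cells of the 4 dpi callus were sequenced on the 10x platform, in 1 control and 1 *Smo* cKO library. Cell Ranger 3.0.2 with its default settings and the mm10 genome was used by the authors, whose deposited matrices hold raw UMI counts per gene and barcode, without normalization. Coordinates are from GENCODE vM21 and promoters from RefSeq (GRCm38.p6). The annotation behind the counts is not given in the sources used here.

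Cells with at least 200 detected genes and under 10% of UMIs on the 13 mt- genes were kept, with no upper limit on genes, where the paper's methods set one at 2000. Each marker was scaled to a z score over cells, capped at 3, and a cell was assigned to the class with the highest mean above 0 among those with at least 3 markers detected in it. Connective-gated cells were divided further in the same way. Of 146 listed markers 2 are missing from the feature list. The members and lists were chosen with earlier results of these data known. Named are the 10 genes, the mineralization lists and, for each gene, up to 5 genes most like it among the 20 highest correlations in both libraries.

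UMIs were summed over the cells of a class and divided by its total UMIs (CPM), ratios have exact intervals for 2 Poisson counts, and shares have Clopper-Pearson intervals at 95%. A count of 0 allows up to 3 counts. UMIs of a gene often come from few cells, which these intervals do not cover. Calls used 2-fold and 50 CPM in either library. Simulated counts with known folds were used to test the scripts. Doublets were sought with Scrublet (scanpy 1.11.5), which called 0 control and 2 *Smo* cKO cells (0.0210%) and thus has not worked, and no cell was removed for it. Alternatives were the gene limit, the mitochondrial limit, a stricter gate, the scaling, equal weights for cells, the top 10 cells and the floor. Chosen after seeing the data were the removal of shared barcodes, of the 6% of cells with the highest Scrublet scores and of the cell with most UMIs, and the 1.5-fold and 10 CPM rules. Python 3.11.15, numpy 2.4.6, scipy 1.17.1 and pandas 2.3.3 were used.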

Additional observations from a re-analysis of the deposited data

Results flagged for a closer look

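For 3 genes the ratio of *Smo* cKO over control had opposite signs in different classes, each at 50 CPM or more in either library, and the difference between the classes was not tested. The log2 ratio of *Ibsp* was 2.37 in chondrocyte-gated cells and -3.28 in neutrophil-gated cells, and 896 of the 1390 *Smo* cKO UMIs in the former and 49 of the 95 control UMIs in the latter came from 1 cell. That of *Bglap* was 4.65 in chondrocyte-gated cells, from 7 control and 111 *Smo* cKO UMIs, and -0.40 in osteoblast-gated cells. That of *Ank* was 0.29 in osteoclast-gated cells, where 192 control and 184 *Smo* cKO cells held a UMI, and -1.05 in tendon-gated cells.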

How the results depend on the processing

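The counts of genes past 2-fold moved with the limit on detected genes and with the floor. At no more than 2000 genes, which keeps 22.0% of control and 15.6% of *Smo* cKO connective-gated cells, 82 of 2527 genes were higher and 10 lower. Of the 10 mineralization genes 3 were at least 2-fold higher: *Ibsp* (2.25), *Bglap* (2.01) and *Bglap2* (2.40). Of the *Bglap* UMIs of the cells so kept, 424 of 458 in control lay in 9 osteoblast-gated cells and 744 of 829 in *Smo* cKO in 7. In *Smo* cKO 1 of these cells held 714 *Bglap* UMIs and 515 *Bglap2* UMIs, so that both ratios rest largely on that cell. *Ank* was then at 0.20 (-0.16 to 0.56), and 0 genes were highest in the osteoblast-gated class, which had under 50 cells and was not ranked. With a floor of 10 CPM 67 genes were higher and 18 lower, and with 100 CPM 11 were higher. With each cell weighing the same, 1 gene, *Ibsp* (1.15), was at least 2-fold higher. That ratio was not determined without the *Smo* cKO cell that held 896 *Ibsp* UMIs. Under the stricter gate 7 genes were highest in osteoblast-gated cells, with *Ibsp* in and *Dmp1* out.

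Over all alternatives the log2 ratio lay between 0.55 and 2.25 for *Ibsp*, 0.24 and 2.40 for *Bglap2*, 0.14 and 0.81 for *Enpp1* and -0.74 and 0.20 for *Ank*. That of *Bglap* lay between -0.33, without the 6% of cells with the highest Scrublet scores, and 2.01. The cause of these moves was not tested. No paired analysis was possible because each genotype has 1 library. *Dmp1* and *Phex* had at most 39 UMIs in connective-gated cells of either library, which limits the precision of their ratios.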
